A study of Mus musculus with 76 samples.

Results

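Matrix metalloproteinases (MMPs) and their tissue inhibitors (TIMPs) were measured in CT26 and 4T1 tumors with and without added catalase. The 9 genes described here were chosen by name, as *Mmp2*, *Mmp3*, *Mmp9*, *Mmp12*, *Mmp13*, *Mmp14*, *Timp1*, *Timp2* and *Timp3*, out of 55536 genes in the count table. All 9 passed the filter on low counts in every comparison. Their clearest pattern followed the tumor line. CT26 tumors held less *Mmp9*, *Mmp3*, *Mmp2*, *Mmp13* and *Mmp14* RNA and more *Timp1* and *Timp3* RNA than 4T1 tumors, whereas none of the 9 genes passed the threshold in any catalase comparison. The contrast was not particular to these 9 genes. By edgeR, 42.4% of all genes tested with alum and 45.5% with CAT-ABP + alum passed between the lines. In a catalase comparison at most 0.0235% of all genes passed by edgeR. By DESeq2 that share reached 6.73% of the 3955 genes to which it gave an adjusted p.

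RNA was sequenced from 38 whole tumors, each as 2 technical replicate libraries, in 7 groups. The tumors grew subcutaneously on the flank of young adult female Balb/c mice from CT26 cells, a mouse colorectal carcinoma line, or 4T1 cells, a mouse mammary carcinoma line. CAT-ABP is recombinant human catalase joined to a phosphorylated peptide that binds alum, an injectable aluminum hydroxide particle, so that the enzyme stays in the tumor. Per the labels, 20 µg CAT-ABP + 100 µg alum or alum alone was injected into the tumor on day 6 and tumors were harvested on day 8. The paper's text gives other days for these steps. Parental tumors that received CAT-ABP + alum numbered 6 for CT26 and 6 for 4T1, and 5 tumors of each line received alum. 4T1-CAT cells carry a doxycycline (DOX)-inducible lentiviral transgene for human catalase without its peroxisomal motif, together with GFP, and 4T1-control cells carry GFP alone. Both engineered lines were sorted pools, and mice bearing them ate a DOX diet from day 4 per the labels. Of the 4T1-CAT tumors, 5 received the enzyme with alum and 5 received alum, and all 6 tumors of 4T1-control received alum. No group went without alum, and the human transgene is not in the mouse counts.

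The summed count per tumor lay between 493044 and 9077549, and 7 of 76 libraries were under 518752 counts. The lowest count for any of the 9 genes in any tumor was 7, for *Timp3*. Levels are given in CPM, a gene's count relative to its library's total, with totals scaled by TMM (a trimmed mean of ratios). HT3DGE reads transcripts near their 3′ end and gene lengths were not used, so levels are compared between tumors for 1 gene and never between genes. In RNA from a whole tumor, fewer cells of a type and less RNA per cell cannot be told apart. By their index tags the libraries fell into a pair of sets, called index sets A and B here, which the labels do not name as pools or batches. All CT26 tumors, all 4T1 tumors given CAT-ABP + alum and 2 of the 5 4T1 tumors given alum were in index set A, and the other tumors were in index set B. The labels call the tumors biological replicates and number them within each group.

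MMPs are zinc-dependent proteases that are made as inactive precursors and cut collagens, gelatin, elastin, laminins and many cell surface proteins. TIMPs bind their active sites, so net proteolysis depends on activation and inhibition as well as on the RNA measured here. In tumors these genes are known to be expressed by fibroblasts, macrophages and neutrophils and, in some lines, by the carcinoma cells themselves.

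The 9 genes lie on 6 autosomes and the X chromosome (GRCm38, GENCODE M21). *Mmp13* (chr9:7272514-7283331), *Mmp12* (chr9:7344381-7369499) and *Mmp3* (chr9:7445822-7455975) belong to a cluster of 10 *Mmp* genes that spans 427.1 kb (chr9:7272514-7699585). The others are *Mmp2* (chr8:92827291-92853420), *Mmp9* (chr2:164940780-164955850), *Mmp14* (chr14:54431612-54445364), *Timp1* (chrX:20870166-20874735), *Timp2* (chr11:118301069-118355740) and *Timp3* (chr10:86300372-86349506). *Timp1* and *Timp3* lie within the synapsin genes *Syn1* and *Syn3* on the opposite strand, and whether the counting used strand is not stated. Over all 76 libraries, *Syn1* held 71.0 counts against 80815 for *Timp1*, and *Syn3* held 358 against 5496 for *Timp3*. The end of *Mmp12* overlaps *Mmp1b* over 1261 bases, and *Mmp1b* held 2.0 counts.

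Promoter sequences from RefSeq (GRCm38.p6) matched 7 of the 9 genes with 8 start sites. The clustered genes are shown because AP-1, a dimer of Fos and Jun proteins, is a long-known regulator of MMP promoters and its letters TGAGTCA, on either strand, were found there. Within the 250 bases before the start, TGAGTCA or its reverse complement TGACTCA occurred in *Mmp13*, in *Mmp3* and at 1 of the 2 *Mmp12* starts. It occurred in none of the *Timp1*, *Timp2*, *Timp3* and *Mmp14* windows and in 4.463% of 32851 promoters. TATAAA on the gene strand within 50 bases of the start occurred in *Mmp13* and *Mmp3* and in 2.627% of all promoters. The 100 bases before each start follow, 5′ to 3′ on the + strand, with these letters in capitals. They are chr9:7272414-7272513, chr9:7347274-7347373, which lies inside the annotated *Mmp12* gene before its second start, and chr9:7445722-7445821. A match of letters is a description and not a binding site.
Mmp13: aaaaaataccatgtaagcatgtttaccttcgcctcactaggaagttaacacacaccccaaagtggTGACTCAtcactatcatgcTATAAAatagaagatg
Mmp12: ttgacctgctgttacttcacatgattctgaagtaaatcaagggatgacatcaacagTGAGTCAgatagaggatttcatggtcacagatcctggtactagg
Mmp3: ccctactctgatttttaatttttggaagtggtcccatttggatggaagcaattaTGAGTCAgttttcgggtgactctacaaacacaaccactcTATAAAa

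For the gelatinases *Mmp2* and *Mmp9* and the stromelysin *Mmp3*, the 5 groups of 4T1 origin came first in the order of mean levels and the 2 CT26 groups last. The *Mmp2* mean ran from 125 ± 36.7 CPM in 4T1-CAT tumors given alum through 96.1 ± 6.31 CPM in 4T1 tumors given alum to 32.7 ± 10.7 CPM in CT26 tumors given alum. Among the groups of 4T1 origin, every neighbouring pair in that order overlapped in range for all 9 genes. For *Mmp2*, *Mmp3* and *Mmp9* the step down to the CT26 groups was the only one without overlap between neighbours.

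*Mmp13*, a collagenase, and *Mmp14*, the membrane-anchored MMP that activates pro-MMP2, had the same order by line, but their neighbouring groups overlapped. The group means of *Mmp14* lay between 53.8 ± 10.4 CPM and 92.6 ± 19.4 CPM. *Mmp12*, the elastase typical of macrophages, overlapped between all neighbouring groups, and its mean lay between 78.8 ± 41.3 CPM and 124 ± 38.1 CPM. Among the inhibitors, *Timp1* was highest in CT26 tumors, at 809 ± 154 CPM with CAT-ABP + alum and 753 ± 166 CPM with alum, and these ranges did not overlap that of the next group, 4T1-CAT with alum (414 ± 116 CPM). *Timp2* kept to a mean between 190.2 ± 38.7 CPM and 219.8 ± 22.1 CPM over the 7 groups, and no neighbours differed beyond their spread. *Timp3* fell into the order CT26 with alum (58.6 ± 24.3 CPM), CT26 with CAT-ABP + alum (45.7 ± 19.1 CPM), 4T1-CAT, 4T1 with CAT-ABP + alum, 4T1-control and 4T1 with alum (12.3 ± 5.09 CPM), with overlap at each step. All errors are SDs over the tumors of a group.

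**Figure D1:**
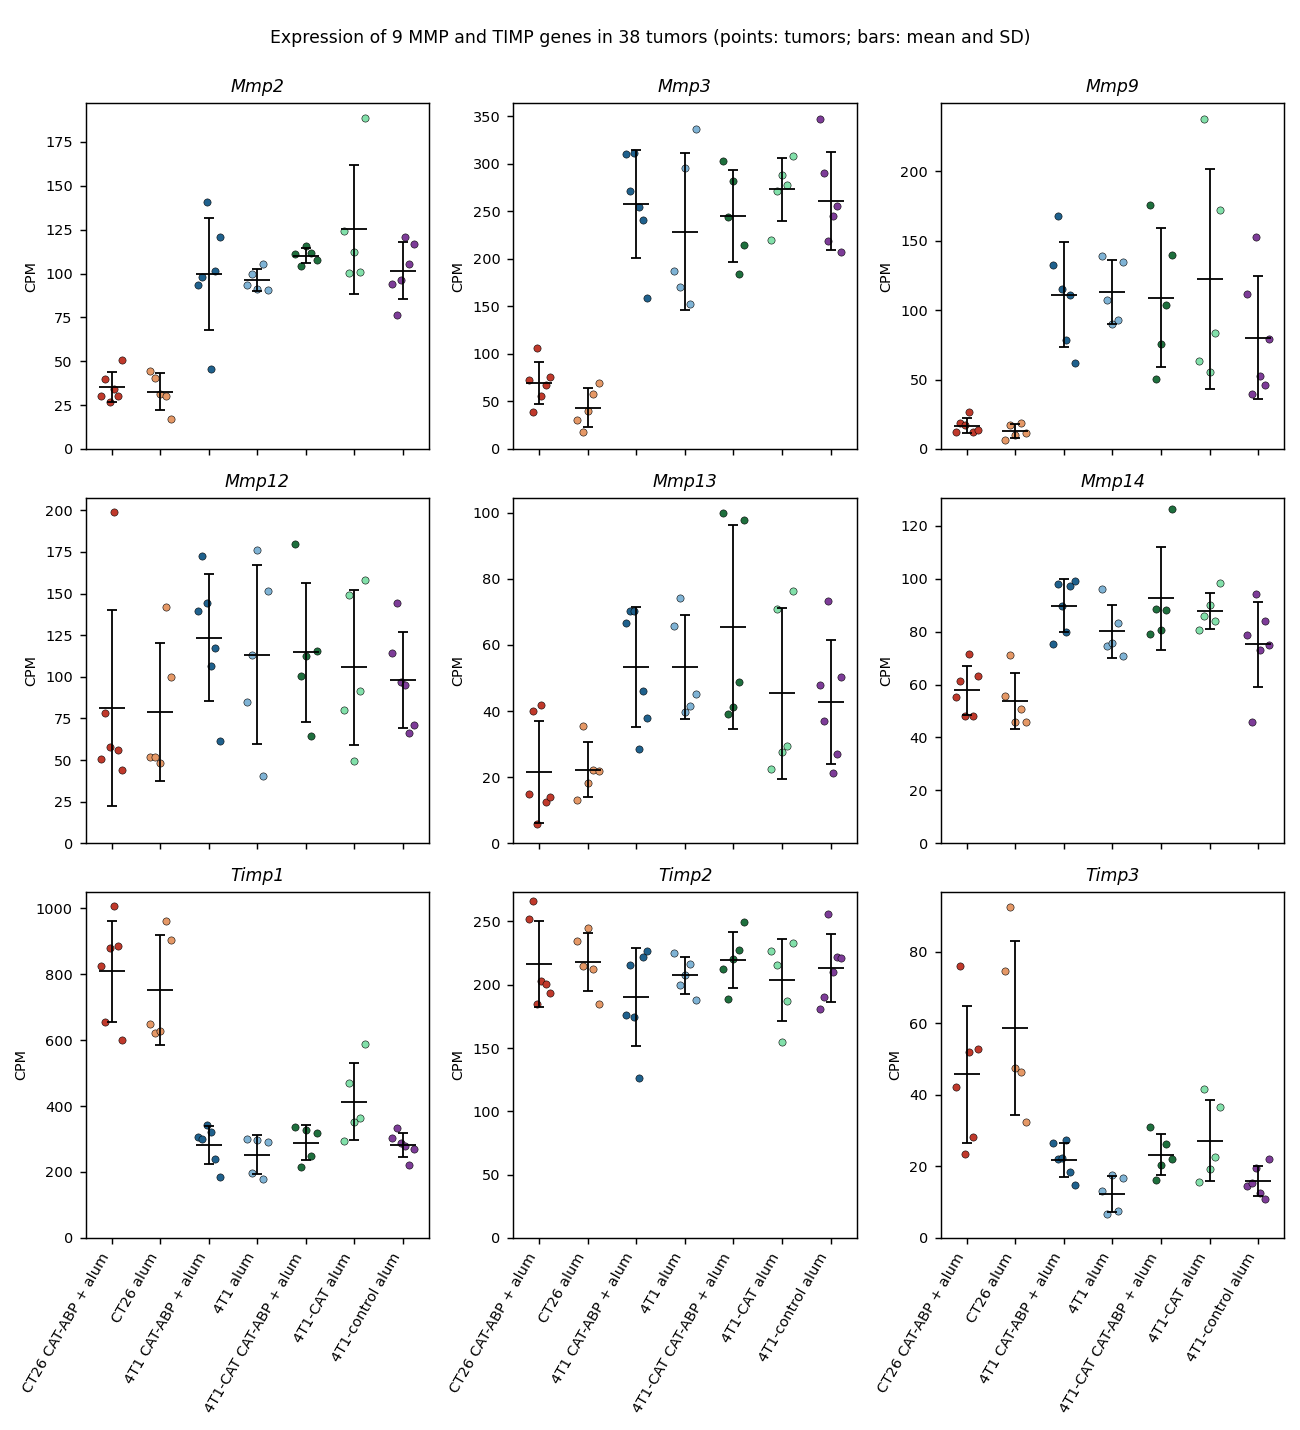
Level (CPM, linear axis from 0) of each of the 9 genes in each of 38 tumors by group, with points for tumors and black bars for the mean and SD. *Mmp9*, *Mmp3* and *Mmp2* sit lower, and *Timp1* higher, in the 2 CT26 groups on the left than in the 5 groups of 4T1 origin, apart from 1 4T1 tumor at 45.4 CPM for *Mmp2*, and *Timp2* sits near the same level throughout.

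The tumor lines were compared first with alum alone, 5 CT26 tumors against 5 4T1 tumors, by the quasi-likelihood test of edgeR, with p-values adjusted over 12817 genes (Benjamini-Hochberg) and called at 0.05. Of the 9 genes, 5 were lower and 2 were higher in CT26. The lines differed widely, and 42.4% of all genes tested passed the threshold, 21.3% higher and 21.1% lower. The median log2 fold change of the 9 genes was -0.58, against 0.02 over all genes.

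The gelatinases degrade denatured collagen and basement membrane. *Mmp9* stood at 6.72, 10.2, 11.3, 17.0 and 18.4 CPM in the CT26 tumors and at 90.1, 92.9, 107, 135 and 139 CPM in the 4T1 tumors. Every 4T1 tumor was above every CT26 tumor, and the level in CT26 was 9.16-fold lower (log2 fold change -3.20, SE 0.24, adjusted p = 5.02e-08). *Mmp2* stood at 16.9, 30.5, 31.5, 40.4 and 44.5 CPM in CT26 and at 90.7, 91.3, 93.5, 99.7 and 105 CPM in 4T1. The 4T1 tumors lay close together, again with no overlap, and *Mmp2* was 2.95-fold lower in CT26 (log2 fold change -1.56, SE 0.20, adjusted p = 1.44e-05).

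*Mmp3* encodes stromelysin-1, which cuts proteoglycans and laminin and activates other pro-MMPs. Its level was 18.0, 31.0, 39.9, 58.0 and 69.6 CPM in CT26 and 153, 170.1, 187, 296 and 337 CPM in 4T1. CT26 tumors were spread widely below all 4T1 tumors, and *Mmp3* was 5.23-fold lower (log2 fold change -2.39, SE 0.31, adjusted p = 1.96e-05). *Mmp13* encodes collagenase-3, which cuts fibrillar collagens. It stood at 13.0, 18.2, 21.9, 22.3 and 35.5 CPM in CT26 and at 39.7, 41.6, 45.2, 65.9 and 74.1 CPM in 4T1. The lowest 4T1 tumor was just above the highest CT26 tumor, and the level was 2.45-fold lower in CT26 (log2 fold change -1.30, SE 0.25, adjusted p = 0.000602).

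*Mmp14*, which encodes MT1-MMP, was 45.8, 46.0, 50.7, 55.5 and 71.0 CPM in CT26 and 70.8, 74.7, 75.7, 83.1 and 96.2 CPM in 4T1. The highest CT26 tumor lay just inside the 4T1 range, and the difference was smaller (1.5-fold lower, log2 fold change -0.58, SE 0.15, adjusted p = 0.00510). With technical replicate 2 alone it did not pass (log2 fold change -0.42, adjusted p = 0.0986). *Mmp12* was 48.2, 51.6, 52.0, 100.0 and 142 CPM in CT26 and 40.3, 85.0, 113, 152 and 176 CPM in 4T1. The 2 ranges overlapped almost entirely, and it did not pass the threshold (log2 fold change -0.53, 95% confidence interval -1.30 to 0.25, adjusted p = 0.260).

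The inhibitors went the other way or did not pass. *Timp1*, a secreted inhibitor that also binds pro-MMP9, stood at 622, 627, 649, 903 and 963 CPM in CT26 and at 179, 196, 289.5, 297 and 299 CPM in 4T1. All CT26 tumors were above all 4T1 tumors, with a 2.99-fold higher level (log2 fold change 1.58, SE 0.20, adjusted p = 1.54e-05). *Timp3*, the inhibitor that binds to matrix and also blocks ADAM17, stood at 32.3, 46.3, 47.4, 74.5 and 92.4 CPM in CT26 and at 6.61, 7.53, 13.0, 16.7 and 17.6 CPM in 4T1. Again no tumor of one line reached the other, and *Timp3* was 4.74-fold higher in CT26 (log2 fold change 2.25, SE 0.32, adjusted p = 3.74e-05). *Timp2*, which inhibits MMP2 and takes part in its activation by MT1-MMP, ranged over 185 to 245 CPM in CT26 and 188 to 225 CPM in 4T1. It did not pass (log2 fold change 0.07, 95% confidence interval -0.20 to 0.35, adjusted p = 0.674).

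In all, the groups did not overlap for 6 of the 9 genes, against 29.9% of all genes. For these 6 the two-sided exact permutation test gave p = 0.00794, the smallest that 5 against 5 tumors allow, and p = 0.0519 after Benjamini-Hochberg adjustment over 72 tests, which misses 0.05. Because 3 of the 5 4T1 tumors were in index set B, the comparison was repeated in index set A, with 5 CT26 and 2 4T1 tumors. The same 7 genes of the 9 passed with those tumors alone and with the index set as a covariate.

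The 6 CT26 and 6 4T1 tumors given CAT-ABP + alum, all in index set A, are other animals and share no tumor with the first comparison. Again 5 of the 9 genes were lower and 2 higher, with 45.5% of 13016 genes past the threshold, 21.8% higher and 23.7% lower. *Mmp9* had a lowest value of 12.4, a median of 15.4 and a highest value of 26.8 CPM in CT26 and a lowest value of 61.8, a median of 113 and a highest value of 168 CPM in 4T1. The ranges were far apart, and the log2 fold change was -2.76 (SE 0.23, adjusted p = 2.54e-08, edgeR). *Mmp3* had a lowest value of 39.4, a median of 69.9 and a highest value of 106 CPM in CT26 and a lowest value of 158, a median of 263 and a highest value of 312 CPM in 4T1. These ranges did not overlap, and the log2 fold change was -1.94 (SE 0.21, adjusted p = 8.17e-07).

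*Mmp2* had a lowest value of 26.6, a median of 32.2 and a highest value of 50.5 CPM in CT26 and a lowest value of 45.4, a median of 99.7 and a highest value of 141 CPM in 4T1. A single 4T1 tumor, replicate 4 with 38 *Mmp2* counts, fell inside the CT26 range, and the log2 fold change of -1.56 (SE 0.20, adjusted p = 6.49e-06) was close to that with alum. *Mmp13* (log2 fold change -1.35, adjusted p = 0.00557) and *Mmp14* (-0.68, adjusted p = 0.000404) were also lower in CT26. For *Mmp13* the ranges overlapped, with 5.89 to 41.9 CPM in CT26 and 28.6 to 70.4 CPM in 4T1.

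*Timp1* had a lowest value of 599, a median of 851 and a highest value of 1009 CPM in CT26 and a lowest value of 185, a median of 302 and a highest value of 341 CPM in 4T1. All CT26 tumors were higher, with a log2 fold change of 1.48 (SE 0.18, adjusted p = 2.52e-06). *Timp3* had a lowest value of 23.4, a median of 47.1 and a highest value of 75.9 CPM in CT26 and a lowest value of 14.9, a median of 22.1 and a highest value of 27.5 CPM in 4T1. The lowest CT26 tumor lay inside the 4T1 range, and the log2 fold change was 1.07 (SE 0.25, adjusted p = 0.00180). *Timp2* did not pass (log2 fold change 0.15, 95% confidence interval -0.16 to 0.46). Groups did not overlap for 4 of the 9 genes, against 22.3% of all genes.

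*Mmp12* in this comparison depended on 1 tumor. CT26 replicate 4 held 199 CPM while the other CT26 tumors held 44.3 to 78.6 CPM, and the 4T1 tumors had a lowest value of 61.6, a median of 129 and a highest value of 172 CPM. With all tumors *Mmp12* did not pass (log2 fold change -0.64, 95% confidence interval -1.32 to 0.03, adjusted p = 0.113). Without CT26 replicate 4 the log2 fold change was -1.13 (adjusted p = 0.000527). It also passed with no filter on low counts, with the replicate number as a block and with technical replicate 2 alone, at log2 fold changes between -0.84 and -0.64.

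**Figure D2:**
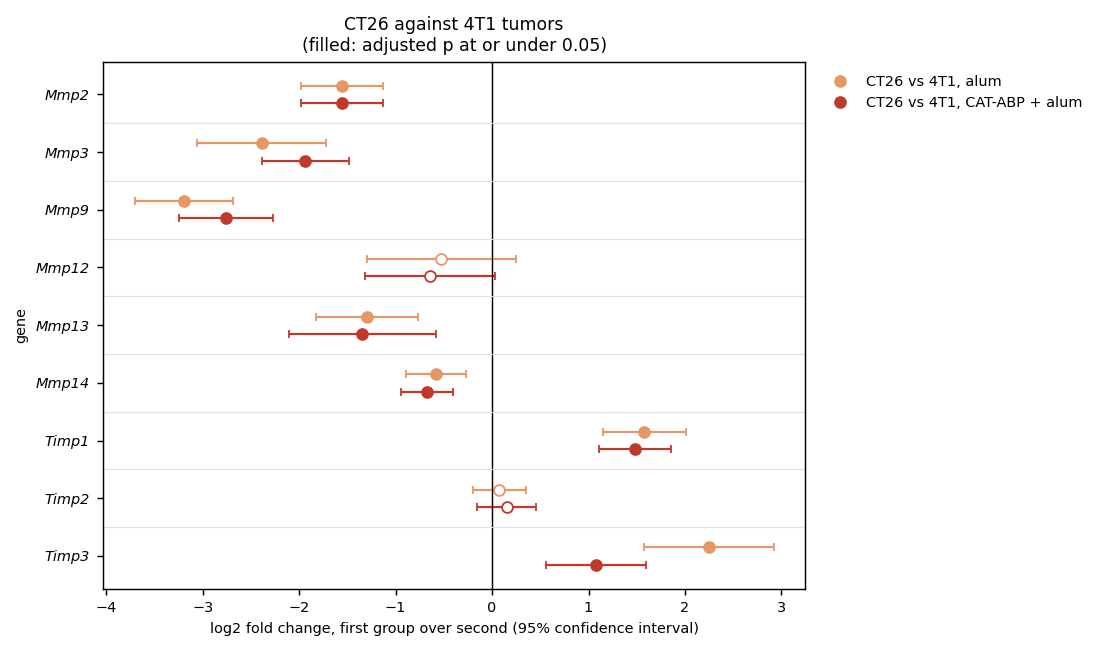
Log2 fold change of CT26 over 4T1 tumors for each of the 9 genes, with alum (orange) and with CAT-ABP + alum (red), with 95% confidence intervals from edgeR. Filled points passed an adjusted p of 0.05: 5 proteases lie left of 0 and *Timp1* and *Timp3* right of 0, while *Mmp12* and *Timp2* are open in both comparisons.

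Other members of both families were examined from a list of 18 genes. With alum, 7 of them passed the count filter, of which 5 were lower and 1 was higher in CT26, with a median log2 fold change of -1.14. *Mmp10*, another stromelysin of the chromosome 9 cluster, averaged 2.56 CPM in CT26 and 64.1 CPM in 4T1 (log2 fold change -4.63, SE 0.32, adjusted p = 2.05e-08). *Mmp1a*, an interstitial collagenase gene of the same cluster, was at 0 in 4 of 5 CT26 tumors and averaged 4.33 CPM in 4T1 (adjusted p = 1.04e-05). Its close copy *Mmp1b* had at most 1 count in any tumor, and reads could be split between these copies. *Mmp11*, which is typical of stromal fibroblasts, and *Mmp15*, a membrane-type MMP, were also lower (log2 fold changes -1.46 and -1.14). *Mmp25*, the membrane-type MMP of leukocytes, was higher (log2 fold change 2.07, adjusted p = 0.00258), but did not pass within index set A (log2 fold change 1.58, adjusted p = 0.0953), with the index set as a covariate or in technical replicate 2.

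With CAT-ABP + alum, 6 of the 18 passed the filter, 4 lower and 1 higher, again with *Mmp10* lowest (log2 fold change -4.33, adjusted p = 8.00e-09). *Mmp23* was lower too (log2 fold change -1.73, adjusted p = 0.00183). *Timp4*, *Mmp7*, *Mmp20* and *Mmp21* had at most 5 counts in any tumor.

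Genes that act beside the MMPs split by direction. Of 26 genes for other matrix proteases and their regulators, 25 were tested with alum, 6 higher and 11 lower, with a median log2 fold change of -0.32. The cysteine proteases *Ctss* and *Ctsb* and the urokinase receptor gene *Plaur* were higher in CT26 (log2 fold changes 1.02, 0.90 and 0.94). The protease nexin gene *Serpine2* and the plasminogen activator gene *Plat* were lower (log2 fold changes -4.28 and -1.72). Of 16 genes for matrix substrates, 10 were lower and 1 was higher, with a median of -0.65. Fibronectin (*Fn1*), *Col5a2* and *Lamb1* were lower (log2 fold changes -1.64, -2.08 and -1.12), and decorin (*Dcn*) was higher (1.22). With CAT-ABP + alum the counts were 4 higher and 12 lower of 26, and 1 higher and 11 lower of 16.

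Markers of some cell types differed between the lines as well. The summed level of 12 fibroblast markers was 281 to 446 CPM over the CT26 tumors given alum and 996 to 1216 CPM over the 4T1 tumors given alum, with 8 of 12 lower and 1 higher in CT26. That of 12 macrophage markers was 4168 to 4367 CPM in CT26 and 2023 to 3990.5 CPM in 4T1, with 5 of 12 higher and none lower. Epithelial markers summed to 41.3 to 86.7 CPM in CT26 and 2012 to 2961 CPM in 4T1, with 9 of 9 tested lower and *Cldn7* at 0 in all CT26 tumors. Neutrophil markers summed to 59.5 to 105 CPM and 76.5 to 121 CPM, with 1 of 6 tested higher and 1 lower, and this list shares *Mmp8*, the neutrophil collagenase gene, with the list of other MMPs. Endothelial markers summed to 100.0 to 198 CPM and 151 to 171 CPM, with none of 8 higher and 2 lower. Muscle markers summed to 72.5 to 735 CPM and 159 to 451 CPM, and the tissue they came from was not tested. The part of these cell types in the levels of the 9 genes was not tested.

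**Figure D3:**
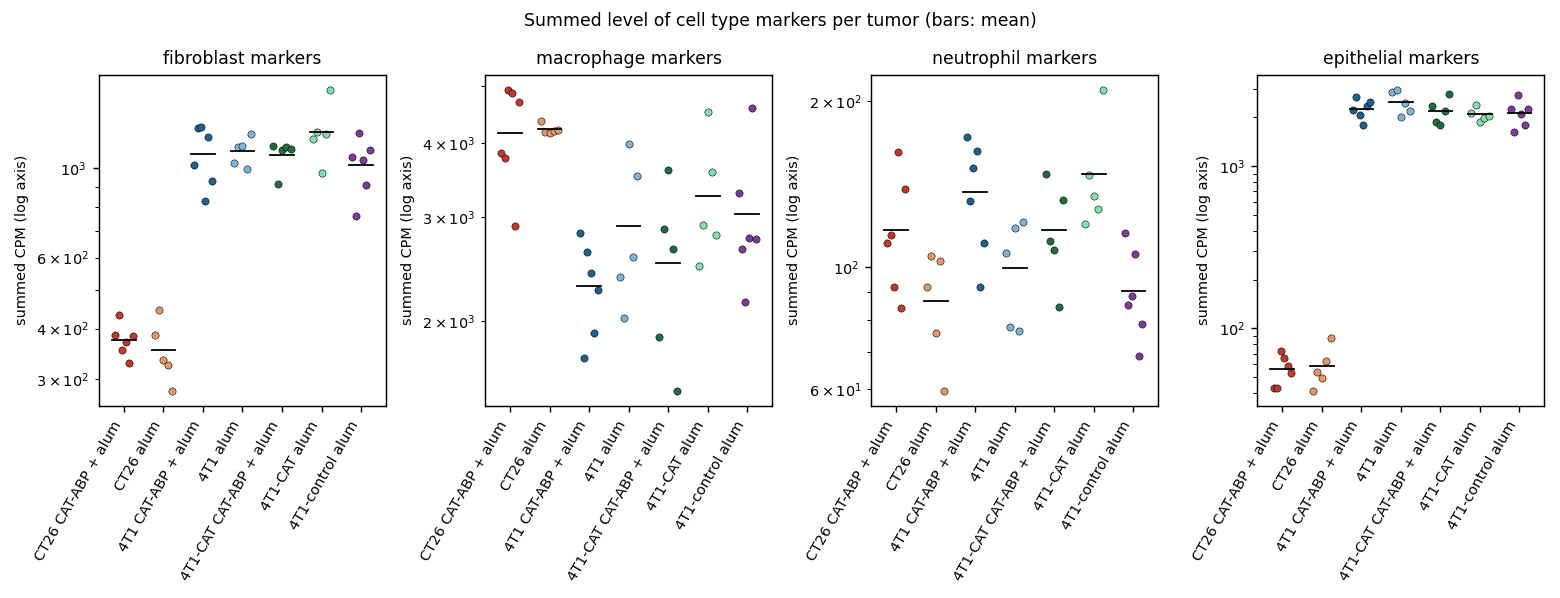
Summed CPM (log axis) of the fibroblast, macrophage, neutrophil and epithelial markers in each tumor by group, with bars for the mean. The 2 CT26 groups are lower in fibroblast and epithelial markers and the neutrophil sums overlap between the lines.

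Catalase added outside the cells was compared with alum alone in CT26, in 4T1 and in 4T1-CAT. Catalase inside the cells was compared as 4T1-CAT against 4T1-control with alum, and both together as 4T1-CAT with CAT-ABP + alum against 4T1-control with alum. These comparisons share control groups where they name the same group, so their values are not independent of each other. By edgeR, 0 of the 9 genes passed in each of the 5 comparisons. The share of all genes past the threshold was 0% in the first 4 and 0.0235% (3 genes) in the last. By DESeq2 also 0 of the 9 genes passed in each, where a gene given no adjusted p counts as not passing. The DESeq2 shares are of the genes to which it gave an adjusted p and so have other denominators. They were 0.00779% of 12830 genes in CT26, 0% of 13091 in 4T1, 0.0479% of 12534 between 4T1-CAT and 4T1-control, 6.73% of 3955 in 4T1-CAT and 5.34% of 9558 for both together.

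In CT26, CAT-ABP + alum left the 9 genes with log2 fold changes between -0.35 and 0.67. The one at an unadjusted p under 0.05 was *Mmp3*, at a lowest value of 39.4, a median of 69.9 and a highest value of 106 CPM with CAT-ABP + alum and 18.0, 31.0, 39.9, 58.0 and 69.6 CPM with alum. The ranges overlapped, with 3 treated tumors above all 5 controls (log2 fold change 0.67, 95% confidence interval 0.06 to 1.27, p = 0.0330, adjusted p = 1.000). The exact permutation test gave p = 0.0693. Of all genes, 2.42% (311) had an unadjusted p under 0.05 by edgeR. *Timp2* had the narrowest interval of the 9 genes here, at -0.32 to 0.29, and *Mmp13* the widest, at -0.88 to 0.89.

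In 4T1, *Timp3* had the smallest p of the 9 genes. It stood at a lowest value of 14.9, a median of 22.1 and a highest value of 27.5 CPM with CAT-ABP + alum and at 6.61, 7.53, 13.0, 16.7 and 17.6 CPM with alum. The tumors with alum were lower on average and 5 of 6 treated tumors were above all of them (log2 fold change 0.79, 95% confidence interval 0.26 to 1.31, p = 0.00550, adjusted p = 0.999). The exact permutation test gave p = 0.0130, and p = 0.0668 after adjustment over 72 tests. All treated tumors and 2 of the 5 controls were in index set A, and there the means were 21.9 CPM in 6 tumors and 9.79 CPM in 2. The *Timp3* log2 fold change was 1.13 with the index set as a covariate, 0.52 with technical replicate 1 alone and 1.40 with technical replicate 2 alone, and none of these passed. The other 8 genes had log2 fold changes between -0.12 and 0.17, and 2.88% (377) of all genes had an unadjusted p under 0.05.

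Between 4T1-CAT and 4T1-control tumors, both given alum, *Timp1* and *Timp3* had unadjusted p under 0.05. *Timp1* stood at 295, 351, 364, 471 and 588 CPM in 4T1-CAT, and 4T1-control had a lowest value of 222, a median of 282 and a highest value of 332 CPM. Of the 5 4T1-CAT tumors, 4 were above all controls (log2 fold change 0.56, 95% confidence interval 0.18 to 0.93, p = 0.00638, adjusted p = 0.668, exact permutation p = 0.0108). *Timp1* is on a gene list that the study drew from these same tumors, so this value is not independent evidence. For 4T1-CAT alum replicates 2 and 3, 1 index tag is listed for both libraries of technical replicate 2, and with technical replicate 1 alone the log2 fold change of *Timp1* was 0.62. *Timp3* stood at 15.5, 19.3, 22.6, 36.5 and 41.6 CPM in 4T1-CAT, and 4T1-control had a lowest value of 10.9, a median of 14.9 and a highest value of 22.2 CPM. Of the 4T1-CAT tumors, 3 were above all controls (log2 fold change 0.76, 95% confidence interval 0.20 to 1.33, p = 0.0113, adjusted p = 0.730). Of all genes, 5.08% (637) had an unadjusted p under 0.05.

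The summed neutrophil markers were 119.6 to 210.2 CPM in 4T1-CAT and 68.8 to 115 CPM in 4T1-control tumors with alum, without overlap, while the fibroblast markers were 973 to 1567 CPM and 762 to 1226 CPM and the muscle markers 235 to 589 CPM and 153 to 366 CPM, with overlap. Of the 12 neutrophil markers, *Ngp* and *Camp*, which mark immature neutrophils, were at 0 in all tumors of both groups. Only 6 of the 12 were tested by edgeR. Of these, 0 passed the threshold and 3 had an unadjusted p under 0.05, beside 5.08% of all genes. The part of these cell types in *Timp1* and *Timp3* was not tested. 4T1-control replicate 2, with 493044 counts in all, had 7 counts of *Timp3*.

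When CAT-ABP + alum was given to 4T1-CAT tumors, *Timp1* stood at 216, 248, 318, 327 and 335 CPM against 295, 351, 364, 471 and 588 CPM with alum. The ranges overlapped, with 2 treated tumors below all controls (log2 fold change -0.53, 95% confidence interval -0.94 to -0.11, p = 0.0163, adjusted p = 0.236). Without 4T1-CAT alum replicate 5, which had the highest level, the log2 fold change was -0.35, and with technical replicate 1 alone it was -0.45. Beside it, the summed neutrophil markers were 84.6 to 148 CPM with CAT-ABP + alum and 119.6 to 210.2 CPM with alum, and the muscle markers 182 to 268 CPM and 235 to 589 CPM. The fibroblast markers were 914 to 1133 CPM and 973 to 1567 CPM, with 2 of 12 log2 fold changes above 0, and the macrophage markers 1523 to 3596 CPM and 2480.2 to 4509 CPM, with 1 of 12 above 0. Of 7 muscle markers tested 0 were above 0 and 5 had an unadjusted p under 0.05, and no marker of these lists passed the threshold. Their part in *Timp1* was not tested. Of all genes, 15.3% (2000) had an unadjusted p under 0.05, and DESeq2 called 266. With both catalases against 4T1-control, *Timp3* had 16.3, 20.3, 22.1, 26.4 and 31.1 CPM against a lowest value of 10.9, a median of 14.9 and a highest value of 22.2 CPM. The ranges overlapped (log2 fold change 0.56, 95% confidence interval 0.12 to 1.00, p = 0.0163, adjusted p = 0.183), with 16.9% (2162) of all genes at an unadjusted p under 0.05. *Timp1* in that comparison had a log2 fold change of 0.05 (95% confidence interval -0.26 to 0.36).

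4T1-control was also compared with parental 4T1, both with alum, which differ in the vector, GFP, selection and the DOX diet, and these cannot be told apart. None of the 9 genes passed (edgeR and DESeq2), with 0% of all genes past the threshold by edgeR and 10.5% (1307) at an unadjusted p under 0.05. DESeq2 called 0.282% of the 5681 genes to which it gave an adjusted p, and a gene given none counts as not passing. *Mmp9* had the smallest p, with a lowest value of 39.3, a median of 65.5 and a highest value of 152 CPM in 4T1-control and 90.1, 92.9, 107, 135 and 139 CPM in 4T1. Of 6 4T1-control tumors, 4 were below all 4T1 tumors (log2 fold change -0.46, 95% confidence interval -1.01 to 0.09, adjusted p = 0.586).

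**Figure D4:**
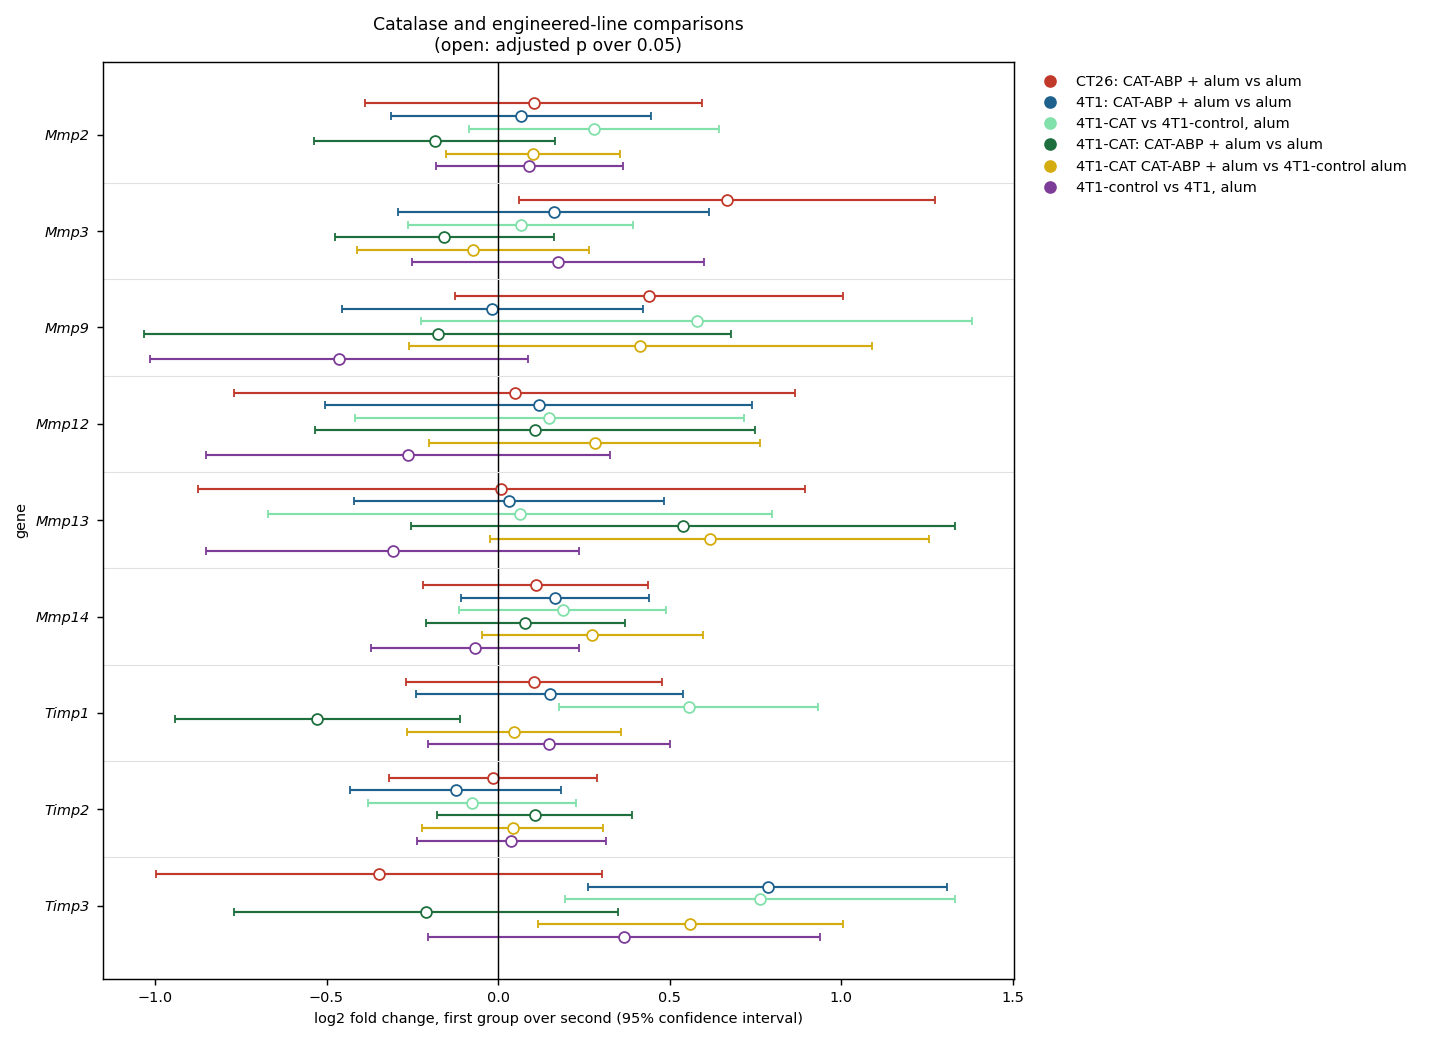
Log2 fold change of the 9 genes, with 95% confidence intervals from edgeR, in the 5 catalase comparisons and in 4T1-control over 4T1 (colors). All points are open, since no adjusted p reached 0.05, and the intervals of *Timp1* and *Timp3* lie to 1 side of 0 in some comparisons while those of *Timp2* all span it.

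Whether the effect of CAT-ABP differed between lines was tested as an interaction. None of the 9 genes passed (edgeR and DESeq2), with 0% of the genes given an adjusted p past the threshold in both interactions by each tool. The effect on *Timp3* was -0.35 in CT26 and 0.79 in 4T1, and their difference was -1.15 (95% confidence interval -2.03 to -0.26, p = 0.0130, adjusted p = 1.000). In 4T1-CAT the effect on *Timp3* was -0.21, which differed from that in 4T1 by -0.997 (95% confidence interval -1.79 to -0.20, p = 0.0160, adjusted p = 0.530). For *Timp1* the difference between 4T1-CAT and 4T1 was -0.68 (95% confidence interval -1.26 to -0.10, p = 0.0241, adjusted p = 0.535). Unadjusted p under 0.05 was found in 3.59% (509) of all genes for CT26 against 4T1 and in 8.79% (1218) for 4T1-CAT against 4T1. Both interactions use the same 4T1 tumors, in which *Timp3* was lowest with alum.

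Tumors of the same group differed in these genes, in places more than the groups did. The highest 4T1-CAT tumor given alum had 4.30 times the *Mmp9* level of the lowest, and in CT26 tumors given CAT-ABP + alum the ratio for *Mmp13* was 7.12. To see which genes varied together, each log2 CPM was taken as its deviation from the group mean and correlated over the 27 tumors of 4T1 origin and, separately, over the 11 CT26 tumors. In all 180 relations were computed, with 100000 permutations within groups and Benjamini-Hochberg adjustment over the 180. These tumors share index sets and the scaling of their libraries. No gene's relation to the log2 total count passed after adjustment. Its r still ran from -0.69 to 0.34 in CT26 tumors and from -0.40 to 0.51 in tumors of 4T1 origin. The part of the total count in the other relations was not tested.

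In tumors of 4T1 origin, 8 of the 36 pairs of the 9 genes passed by Pearson's r and 7 of these by Spearman's rho too. Examples follow. The gelatinase *Mmp9* and the collagenase *Mmp13* varied together most closely (Pearson's r = 0.86, permutation p = 1.00e-05, adjusted p = 0.00180 and Spearman's rho = 0.85, permutation p = 3.00e-05, adjusted p = 0.00180). The p of 1e-05 is the smallest that 100000 permutations can give, and without the 2 tumors farthest from the median *Mmp9* r was 0.84. *Timp1* varied with *Timp3* (Pearson's r = 0.79, permutation p = 7.00e-05, adjusted p = 0.00315 and Spearman's rho = 0.77, permutation p = 0.000160, adjusted p = 0.00360, r = 0.75 without 2 tumors). *Mmp12* varied with *Timp1* (Pearson's r = 0.75, permutation p = 0.000150, adjusted p = 0.00386 and Spearman's rho = 0.74, permutation p = 0.000200, adjusted p = 0.00400, r = 0.73 without 2 tumors). *Mmp3* varied with *Mmp12* of the same cluster (Pearson's r = 0.72, permutation p = 0.000130, adjusted p = 0.00386 and Spearman's rho = 0.72, permutation p = 0.000140, adjusted p = 0.00360, r = 0.66 without 2 tumors). *Mmp14* and *Timp2*, whose products together activate pro-MMP2, were related more weakly (Pearson's r = 0.51, permutation p = 0.00287, adjusted p = 0.0207 and Spearman's rho = 0.61, permutation p = 0.000980, adjusted p = 0.0116, r = 0.51 without 2 tumors).

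Marker sums moved with some of these genes in tumors of 4T1 origin. *Timp1* followed the neutrophil markers (Pearson's r = 0.78, permutation p = 7.00e-05, adjusted p = 0.00315 and Spearman's rho = 0.74, permutation p = 0.000150, adjusted p = 0.00360, r = 0.77 without 2 tumors), and so did *Mmp3*, *Mmp12* and *Timp3* at r between 0.59 and 0.67. *Mmp9* followed the fibroblast markers (Pearson's r = 0.71, permutation p = 0.000150, adjusted p = 0.00386 and Spearman's rho = 0.70, permutation p = 0.000110, adjusted p = 0.00360, r = 0.74 without 2 tumors), and so did *Mmp13* (r = 0.58, adjusted p = 0.0314). *Mmp2* passed with them by r (Pearson's r = 0.59, permutation p = 0.00870, adjusted p = 0.0475 and Spearman's rho = 0.41, permutation p = 0.0626, adjusted p = 0.148), but r was 0.36 without 2 tumors. With the epithelial markers, *Mmp9*, *Mmp13*, *Mmp14* and *Timp2* passed at r of 0.65, 0.64, 0.64 and 0.61, *Mmp14* by Pearson's r alone. *Timp2* was lower where the macrophage markers were higher (Pearson's r = -0.48, permutation p = 0.00762, adjusted p = 0.0442 and Spearman's rho = -0.52, permutation p = 0.00655, adjusted p = 0.0373, r = -0.48 without 2 tumors). *Mmp12*, although typical of macrophages, had r = -0.14 with the macrophage markers (adjusted p = 0.693, permutation). The first principal component of all genes' deviations, which held 28.6% of the variance in tumors of 4T1 origin, was related to *Mmp14*, *Mmp2* and *Timp2* at r of -0.74, -0.56 and -0.51 (adjusted p = 0.0159, 0.0125 and 0.00900, permutation). The part of these cell types in the relations was not tested.

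In CT26 tumors 3 pairs of the 9 genes passed, all with *Timp3*. *Timp3* was lower where *Mmp3* was higher (Pearson's r = -0.87, permutation p = 0.000970, adjusted p = 0.0103 and Spearman's rho = -0.82, permutation p = 0.00578, adjusted p = 0.0372, r = -0.81 without 2 tumors), opposite to the r of 0.47 in 4T1 tumors. The difference between the lines was not tested. *Timp3* was higher where *Mmp14* was higher (Pearson's r = 0.85, permutation p = 0.00263, adjusted p = 0.0197 and Spearman's rho = 0.85, permutation p = 0.00328, adjusted p = 0.0236, r = 0.91 without 2 tumors) and where *Mmp2* was higher (Pearson's r = 0.80, permutation p = 0.00341, adjusted p = 0.0219 and Spearman's rho = 0.83, permutation p = 0.00410, adjusted p = 0.0284, r = 0.83 without 2 tumors). *Timp3* also followed the fibroblast markers (Pearson's r = 0.89, permutation p = 0.000290, adjusted p = 0.00580 and Spearman's rho = 0.91, permutation p = 0.000660, adjusted p = 0.00990, r = 0.95 without 2 tumors). *Mmp14* followed the neutrophil markers (Pearson's r = 0.85, permutation p = 0.00259, adjusted p = 0.0197 and Spearman's rho = 0.86, permutation p = 0.00266, adjusted p = 0.0208, r = 0.81 without 2 tumors), and *Timp2* was lower where the epithelial markers were higher (Pearson's r = -0.86, permutation p = 0.00119, adjusted p = 0.0119 and Spearman's rho = -0.86, permutation p = 0.00219, adjusted p = 0.0179, r = -0.84 without 2 tumors). *Mmp3* was lower where the fibroblast markers were higher by r but not by rho (Pearson's r = -0.87, permutation p = 0.00310, adjusted p = 0.0211 and Spearman's rho = -0.76, permutation p = 0.0204, adjusted p = 0.0780, r = -0.70 without 2 tumors). *Timp3*, *Mmp3*, *Mmp14* and *Mmp2* followed the first principal component of all genes' deviations, which held 32.3% of the variance in CT26, at r = 0.92 for *Timp3* and r = -0.95 for *Mmp3* (adjusted p = 0.00315 and 0.00580, permutation). Whether these relations are particular to the 9 genes was not tested.

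**Figure D5:**
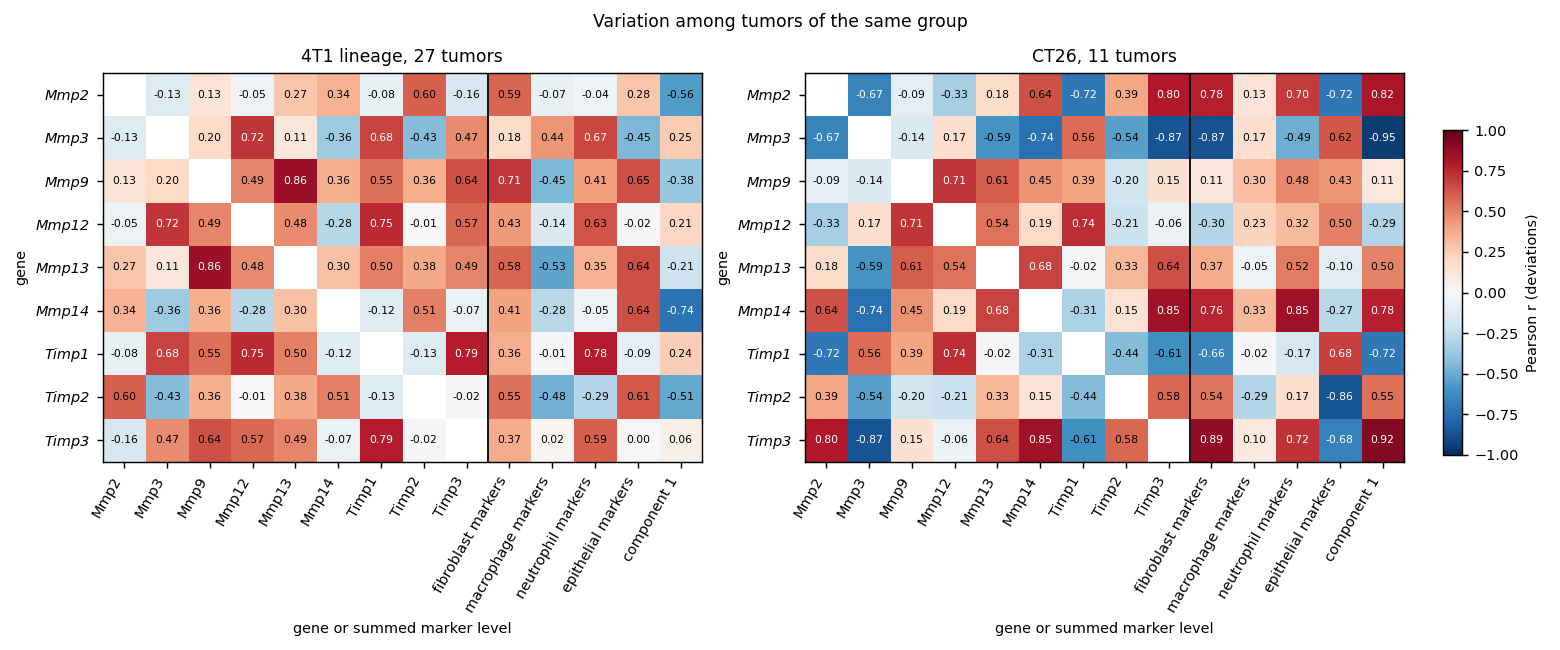
Pearson's r between deviations from the group mean (log2 CPM) for the 9 genes (rows) against each other, against 4 marker sums and against the first component of all genes (columns), in 27 tumors of 4T1 origin (left) and 11 CT26 tumors (right). *Mmp9* and *Mmp13* reach 0.86 on the left, and *Timp3* and *Mmp3* reach -0.87 on the right.

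For each of the 9 genes, the genes most like it over 38 tumors were found by Pearson's r of the same deviations among 14645 other genes, as a description. *Mmp9* and *Mmp13* shared *Arg1*, an arginase of alternatively activated macrophages, as the closest gene (r = 0.85 and r = 0.86). *Mmp9* was next closest to *Rnase2a* and *Prg2*, both granule protein genes of eosinophils (r = 0.81 and 0.79), and *Mmp13* to *Bhlhe40* and *C3* (0.83 and 0.76). *Mmp12* was closest to the metallothionein *Mt2*, the hypoxia-inducible *Hilpda* and *Mmp10* (0.81, 0.79 and 0.79). *Timp1* was closest to *Pf4*, *Mt1* and *Ifitm1* (0.79, 0.75 and 0.74), and *Timp3* to *Serpinb9*, *Il33* and *Gpr171* (0.77, 0.76 and 0.75). *Mmp3* was closest to *Eno3*, *Eef1g* and *Phf5a* (0.89, 0.89 and 0.88), and *Timp2* to *Hnrnpul1*, *Rab31* and *Pdcd6ip* (0.89, 0.88 and 0.85). *Mmp2* was closest to *Herc4*, *Arrdc4* and *Slc37a2* (0.84, 0.83 and 0.82), and *Mmp14* to *Osbpl9*, *Ppp4r1* and *Pik3cd* (0.82, 0.80 and 0.79).

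The technical replicates bore on single values. The 2 libraries of a tumor differed in log2 CPM by a median of 0.14 for *Timp1* and 0.48 for *Mmp12*. *Mmp3* and *Mmp12* were higher in technical replicate 1 by a median of 0.41 and 0.43 over the 38 tumors, and every tumor entered with both libraries.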

How the data were processed

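Whole-tumor RNA was sequenced by HT3DGE, a modified SCRB-seq protocol, on a NextSeq system. The authors used a Smart-seq2 workflow on Terra and DESeq2. The aligner, its build and whether molecular identifiers were collapsed are not given in the sources used here. The deposited table holds estimated counts that were not normalized, and 39.7% of its non-zero values are not whole (tolerance 1e-06). All 55536 gene IDs are in GENCODE M21. Some libraries were excluded for low depth in the paper, which does not name them, and all 76 were kept here.

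Counts were added over the 2 libraries of each tumor and then rounded. After filterByExpr and TMM scaling, edgeR's quasi-likelihood model held only the groups compared, and p-values were adjusted by Benjamini-Hochberg and called at 0.05. The SE is the absolute log2 fold change over the square root of F. CPM used TMM factors over 38 tumors, and log2 CPM a prior count of 2. Single genes were also compared by two-sided exact permutation tests. The labels do not say how the tumors' replicate numbers were given. The p-values weigh a difference or a relation against the spread between tumors.

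The 9 genes, the other lists and the tests were chosen with earlier results of these data known. The genes named were all 9 in the comparisons of CT26 with 4T1, those at an unadjusted p under 0.05 (or else the smallest p) elsewhere, up to 4 per direction past the threshold from the other lists, from which the text gives examples, and the 3 most similar to each of the 9. Alternatives were DESeq2, RLE size factors, no filter, a model over 7 groups, a replicate block, either technical replicate, leaving out libraries under 518752 counts, the index set (from the index tags) as a covariate, index set A or B only (chosen after seeing the data) and leaving out each tumor. Software was R (4.3.3), with edgeR (4.0.16), DESeq2 (1.42.0), limma (3.58.1) and the package for tabular input (1.17.8).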

Additional observations from a re-analysis of the deposited data

Results flagged for a closer look

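In 3 of 63 sets of tumors (9 genes in 7 groups), the highest or lowest tumor stood apart from its group on the log2 scale by Dixon's 95% criterion, which chance meets in about 1 of 20 sets. *Mmp14* in 4T1-CAT tumors given CAT-ABP + alum was highest in replicate 5, at 126 CPM (899 counts), where the others held 79.2 to 88.7 CPM. *Mmp14* in 4T1-control tumors was lowest in replicate 2, at 45.9 CPM (21 counts), where the others held 73.1 to 94.2 CPM. *Mmp2* in 4T1 tumors given CAT-ABP + alum was lowest in replicate 4, at 45.4 CPM (38 counts), where the others held 93.7 to 141 CPM. The last 2 tumors had the lowest total counts of all, 493044 and 837403.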

How the results depend on the processing

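No fitted log2 fold change of a gene named in the comparisons changed sign. The sign of small uncalled differences depended on the measure: for CAT-ABP, 7 of the 9 genes were above 0 by edgeR in CT26 and in 4T1, and 5 of 9 as mean log2 CPM in each. The count of 7 in CT26 against 4T1 became 6 with alum in technical replicate 2 (*Mmp14* lost) and 8 with CAT-ABP + alum without a filter, with the block, in technical replicate 2 and without CT26 replicate 4 (*Mmp12* gained). In catalase comparisons it stayed at 0, except that without a filter 1 gene, *Mmp13*, passed with both catalases against 4T1-control.

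Counts over all genes moved more. DESeq2 called 1 gene for CAT-ABP in CT26, 6 for 4T1-CAT against 4T1-control, 266 for CAT-ABP in 4T1-CAT, 510 for both catalases against 4T1-control and 16 for 4T1-control against 4T1, where edgeR called 3 in the fourth and 0 in the others. Without a filter these counts were 1, 131, 47, 532 and 130, with 16 for CAT-ABP in 4T1 and 2 and 1 for the interactions. 1 model over 7 groups gave 31 for both catalases and 10 for 4T1-control against 4T1, low-depth libraries left out gave 142 and 14, and index set B alone gave 1 for the latter. Both catalases gave 0 and 1 in technical replicates 1 and 2. CT26 against 4T1 gave 2849 with alum and 3559 with CAT-ABP + alum in technical replicate 2. Leaving out tumors gave 0 to 1 for 4T1-CAT against 4T1-control and for CAT-ABP in 4T1-CAT, 0 to 575 for both catalases (575 without 4T1-control replicate 3, 131 without replicate 2) and 0 to 6 for 4T1-control against 4T1. The cause was not tested.

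With the replicate block, CAT-ABP in 4T1-CAT gave 3 and both catalases gave 1. Deviations of same-numbered tumors correlated between -0.29 and 0.33, which cannot tell whether the numbers pair the tumors.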

Other observations

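In each of the 5 catalase comparisons 0 of the tested genes for other MMPs and TIMPs (6 to 8 tested), for other matrix proteases and their regulators (25 or 26) and for matrix substrates (15 or 16) passed the threshold by edgeR. At an unadjusted p under 0.05 there were 5 of 16 substrate genes in 4T1-CAT against 4T1-control and 6 of 25 protease and regulator genes for both catalases against 4T1-control, beside 5.08% and 16.9% of all genes. The median log2 fold change of the substrate genes was 0.32 in the former and -0.10 for CAT-ABP in 4T1-CAT, which share the 4T1-CAT tumors given alum. Markers moved beside them. Fibroblast markers had 12 of 12 log2 fold changes above 0 (median 0.38) in the former and 2 of 12 (median -0.33) in the latter, muscle markers 7 of 7 (median 1.00, with 5 at an unadjusted p under 0.05) and 0 of 7 (median -0.67, with 5), and endothelial markers 8 of 8 (median 0.36) and 1 of 8 (median -0.19). No marker of these lists passed the threshold, and their part in the substrate genes was not tested.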
